A study of Mus musculus with 30 samples.

Results

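The levels of 9 genes that mark homeostatic microglia, P2ry12, P2ry13, Tmem119, Sall1, Siglech, Olfml3, Fcrls, Sparc and Slc2a5, were followed through microglia of mice that had lost none, 1 or both copies of Bin1. The 9 were chosen by name as rows of a table of 47643 genes, and all 9 were among the 16897 genes that were expressed highly enough to be tested. RNA came from microglia of 3 month-old mice sorted by FACS as CD11b+ CD45med cells. Homo mice were Bin1 flox/flox::Cx3Cr1-Cre+ (5 males and 5 females), Het mice were Bin1 wt/flox::Cx3Cr1-Cre+ (6 males and 5 females), and WT mice were Bin1 wt/flox mice without Cre (5 males and 4 females). Every animal therefore carried at least 1 floxed Bin1 copy. Cre is driven from the Cx3cr1 locus, into which it was knocked in, so that 1 copy of Cre replaces 1 copy of Cx3cr1, and against WT, carrying Cre and losing a first copy of Bin1 cannot be told apart. The growth protocol in the labels is instead of microglia cultured from newborn pups and given Tau, LPS and ATP. The values here are described as from sorted cells, and the alternative was not tested.

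Microglia are the resident macrophages of the brain, and in the healthy adult brain they keep a set of genes on that other macrophages lack or hold at low levels. These genes are commonly used to tell microglia from blood-derived cells, and several of them are known to be turned down when microglia react to injury or disease. The set has no single function. P2ry12 and P2ry13 are ADP receptors of the P2Y family, and P2RY12 guides microglial processes towards sites of damage. Sall1 is a transcription factor required for microglial identity. Tmem119 (a membrane protein), Siglech (a Siglec family lectin) and Fcrls (a scavenger receptor of the Fc receptor-like family) sit at the cell surface, Olfml3 and Sparc encode secreted matrix-associated proteins, and Slc2a5 encodes the fructose transporter GLUT5.

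The genes are spread over 6 chromosomes of the mouse genome (GRCm38), and 4 of the 9, P2ry12, P2ry13, Fcrls and Olfml3, lie on chromosome 3, which held 5.6% of the genes tested. P2ry12 (chr3:59216272-59262871, minus strand) and P2ry13 (chr3:59207892-59210882, minus strand) are neighbours, and both lie inside Med12l, a Mediator subunit gene that runs across them on the plus strand. The other members are Tmem119 (chr5:113793729-113800516), Sall1 (chr8:89027235-89044162), Siglech (chr7:55768178-55778925), Olfml3 (chr3:103722222-103738001), Fcrls (chr3:87250758-87263738), Sparc (chr11:55394500-55423183) and Slc2a5 (chr4:150119283-150144169). All are protein-coding. To show what lies before the starts of these genes, the 250 bases upstream of each RefSeq start (GRCm38.p6) were searched on both strands for GAGGAA and GGAAGT, purine-rich words around the GGAA core that ETS factors such as PU.1 bind. The words share GGAA and can overlap there. RefSeq starts matched 8 of the 9 members, not Tmem119, with 3 starts for Sall1. One or both words were present before 5 of the 8 members (P2ry12, P2ry13, Fcrls, Siglech and Sall1) and in 5 of the 10 windows, against 36.7% of 32851 promoter windows of the same length. GAGGAA was present before 2 of the 8 members and in 2 of the 10 windows, against 23.3% of all windows. GGAAGT was present before 4 members and in 4 of the 10 windows, against 19.7% of all windows. For Sall1 the match lies before its innermost start, not before the outermost one, which is printed below. A match is only a description of the sequence. Windows in which no exon is annotated are printed here for a member that has a match close to its start (P2ry13), a secreted member with no match that differed between early and late mouse numbers (Olfml3) and the transcription factor of the set, at its outermost start (Sall1). They read 5′ to 3′ along the gene, with matches in capitals, from chr3:59210883-59211132, chr3:103738002-103738251 and chr8:89044163-89044412, all on the minus strand.
P2ry13: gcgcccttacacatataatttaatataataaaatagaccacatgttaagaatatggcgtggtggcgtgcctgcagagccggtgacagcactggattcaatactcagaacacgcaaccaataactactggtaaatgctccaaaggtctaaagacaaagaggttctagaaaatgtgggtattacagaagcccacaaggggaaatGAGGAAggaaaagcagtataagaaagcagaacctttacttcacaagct
Olfml3: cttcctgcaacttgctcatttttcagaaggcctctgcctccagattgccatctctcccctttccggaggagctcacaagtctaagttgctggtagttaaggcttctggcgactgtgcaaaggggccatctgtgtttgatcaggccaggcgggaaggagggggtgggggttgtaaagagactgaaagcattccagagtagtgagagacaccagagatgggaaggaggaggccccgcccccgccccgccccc
Sall1: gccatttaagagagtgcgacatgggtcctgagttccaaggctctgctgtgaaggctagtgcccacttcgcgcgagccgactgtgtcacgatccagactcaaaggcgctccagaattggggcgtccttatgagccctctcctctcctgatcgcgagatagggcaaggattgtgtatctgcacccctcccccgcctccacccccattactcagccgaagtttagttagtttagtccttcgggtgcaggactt

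The measurements were FPKM, fragment numbers normalized for transcript length and library size, which can be compared between genes. The files give no read totals, and depth relative to the median library, read from the steps between low values, was between 0.669 and 1.41. Bin1, the targeted gene, was at 230.3 to 289.5 FPKM in male and 244 to 271 in female WT mice, and at 39.9 to 55.6 and 39.5 to 43.3 in Homo mice. There were 2 libraries that went against their Het label, the library labelled Het-F-0206 with 42.7 FPKM of Bin1 and the library labelled Het-M-0199 with 51.8. Mouse numbers in the labels fall into early ones, of which WT-F-0122 is the highest, and late ones, which start at WT-M-0176. The early numbers comprise 3 Homo and 2 Het males, 1 WT female and no WT male. In males, number range and genotype are therefore partly confounded, and the late numbers were also analysed alone. What the numbers stand for is not given in the sources used here, and nothing in the labels says whether mice shared a litter or sorting day. Levels are given as deposited FPKM, and the fits used values scaled between libraries. In bulk RNA, fewer cells of a type and less RNA per cell cannot be told apart.

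The 9 genes were among the most abundant transcripts of these libraries. Mean FPKM over the 30 libraries was 4475 for P2ry12, 2184 for Tmem119, 1921 for Sparc, 1573 for Fcrls, 1320.4 for P2ry13, 1284 for Siglech, 644.5 for Olfml3, 329 for Slc2a5 and 144 for Sall1. P2ry12 ranked 8th and Sall1, the lowest, ranked 435th of the 16897 genes tested, and no member was at 0 in any library. Markers of other cells were lower in most lists. Among 6 endothelial markers, Cldn5, Cdh5, Ly6c1 and Slco1a4 stayed below 1 FPKM in every library (Sparc is also expressed by endothelial cells). The 6 together summed to 6.96 to 15.4 FPKM, with up to 14.9 for 1 gene. Of 5 T and B cell markers, Cd3e was at 0 in all libraries and only Cd79b reached 1 FPKM in any. These 5 summed to 16.6 to 38.3 FPKM. The 8 markers of border-associated macrophages, the other resident macrophages of the brain, summed to between 12 and 51.5 FPKM. Neutrophil and choroid plexus markers reached higher levels, with up to 149 FPKM for 1 gene and 349 for the sum of 8 neutrophil markers, and up to 253 and 265 for 4 choroid plexus markers. Both maxima of the sums were in WT males. In choroid plexus the sums were 0.166 to 265 FPKM in WT, 1.21 to 19.3 in Het and 0.351 to 22.6 in Homo males, and none of its 3 tested markers was called against WT. Their part in the levels of the 9 genes was not tested.

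**Figure D1:**
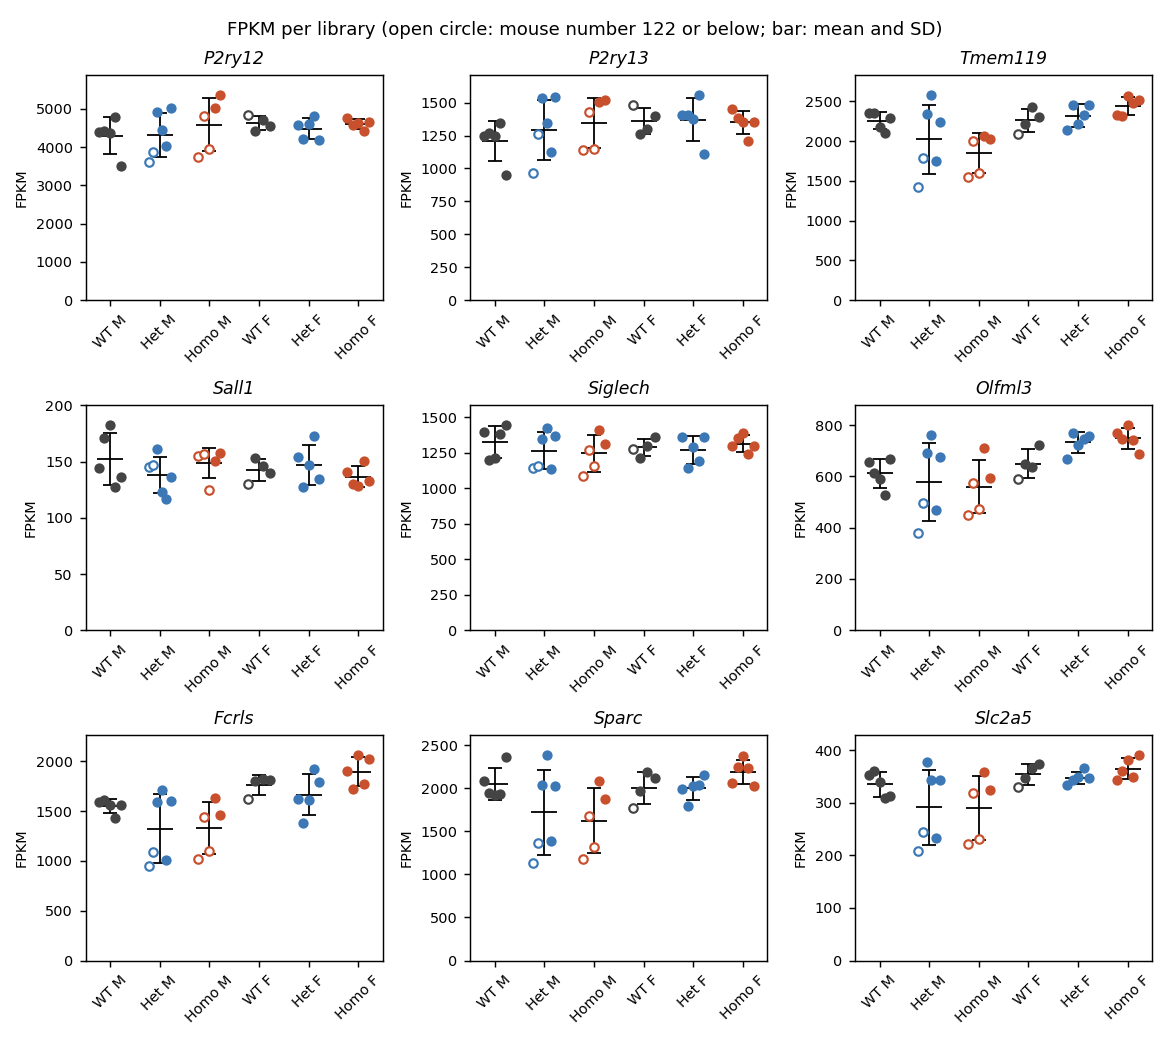
FPKM (linear axis from 0) of each of the 9 genes in each of the 30 libraries, by genotype and sex, with the mean and SD of each group as a bar and open circles for early mouse numbers. Most of the low values among Het and Homo males are open circles, whereas the female groups overlap (Sparc 1765 to 2185 FPKM in WT and 2019.8 to 2373 in Homo females).

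Group means lay close together. The highest group mean was 1.06 times the lowest for Siglech, 1.08 for P2ry12, 1.12 for Sall1, 1.13 for P2ry13, 1.26 for Slc2a5, 1.32 for Tmem119, 1.33 for Olfml3, 1.35 for Sparc and 1.43 for Fcrls. Homo females had the highest mean for Tmem119, Olfml3, Fcrls, Sparc and Slc2a5, and Homo males the lowest for Tmem119, Siglech, Olfml3, Sparc and Slc2a5. When the 6 groups were put in order of their means, neighbours in the order differed by less than the larger of their SDs for 8 of the 9 genes at every step. The exception was Olfml3, for which Het females, at 733 ± 40.2 (SD, n = 5) FPKM, and WT females, at 649.9 ± 55.4 (SD, n = 4) FPKM, were further apart than that.

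Loss of Bin1 was then compared with WT of the same sex, gene by gene, to ask whether microglia without Bin1 keep these identity genes. None of the 9 passed the call in either sex, with 1 copy or both copies lost. The call was a Benjamini-Hochberg adjusted p below 0.05 with a fold change above 1.5, from limma on log2(FPKM + 0.1) after scaling of the libraries. In Homo males, 0 of the 9 were called, against 1.81% of the genes tested, and Tmem119 and Sparc were below an unadjusted p of 0.05, both lower than WT, against 22.5% of the genes tested. The background count of 306 genes became 822 when Homo-M-0189 was left out and 77 when Homo-M-0093 was, the extremes over single libraries, and 0 of the 9 were called each time. In Homo females 0 of the 9 were called (background 0.071%) and 0 were below an unadjusted p of 0.05 (background 3.49%). In Het males both counts were also 0 of 9 (backgrounds 0.154% and 14.2%), as in Het females (0.13% and 3.95%). Between Homo and Het mice both counts were 0 of 9 in males (backgrounds 0% and 3.85%) and in females (0.0118% and 2.06%).

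The size of the differences was limited more closely in females than in males. In Homo females the log2 fold changes were between -0.064 (Sall1) and 0.20 (Olfml3), with a median of 0.041 over the 9 against 0.001 over all genes tested, and no 95% interval reached a change of 1.5-fold. Het females were between -0.094 (Fcrls) and 0.17 (Olfml3), with a median of -0.01 (all genes 0), and the widest interval ended at 1.47-fold. In Homo males the values were between -0.45 (Sparc) and 0.069 (P2ry13), with 7 of the 9 below 0 and a median of -0.22 against 0.031 over all genes, and the widest interval reached 1.81-fold. Het males were between -0.37 (Sparc) and 0.013 (P2ry13), with 8 of 9 below 0 and a median of -0.21 (all genes 0.014). All these comparisons use the same WT libraries within a sex, so the Het and Homo values are not independent.

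**Figure D2:**
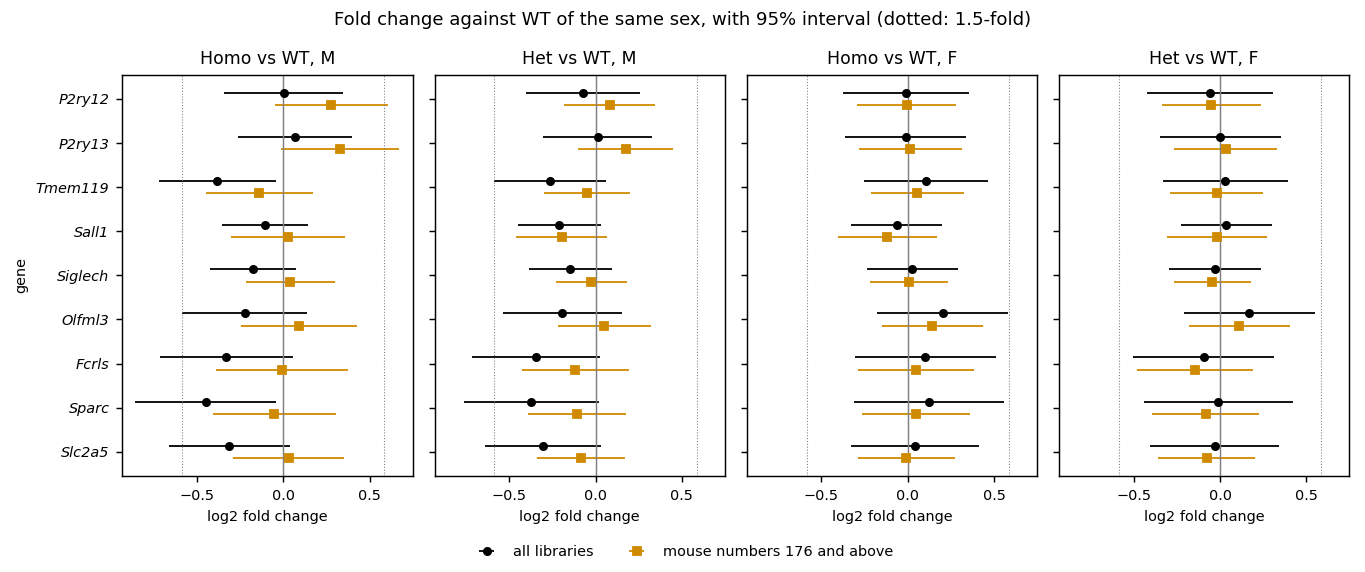
Log2 fold change (horizontal axis) of each gene in Homo and Het mice against WT of the same sex, with 95% intervals from limma, for all libraries (black circles) and for late mouse numbers alone (orange squares); dotted lines mark 1.5-fold. In Homo males the value of Sparc is -0.45 with all libraries and -0.051 in the late numbers, and the female values stay near 0 in both.

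P2ry12, the most abundant member, was 4398, 4425, 4379.6, 4791 and 3509 FPKM in the 5 male WT and 3753, 4811, 3952, 5027 and 5359 in the 5 male Homo libraries. The groups overlapped, with 3 of the 5 Homo libraries above every WT library and none below. On the scaled values 2 were above and 1 below. Het males were 3607 at the lowest, 4238 at the median and 5013 at the highest, with 2 of 6 above every WT library and none below (2 and 1 on the scaled values). The log2 fold change in Homo males was 0.0016 (SE 0.17, 95% interval -0.34 to 0.35, adjusted p = 0.999). In females P2ry12 was 4850.3, 4425, 4718 and 4563 in WT, 4582, 4202, 4594, 4808 and 4179 in Het and 4771, 4588, 4622, 4413 and 4652 in Homo libraries, all within 4179 to 4850.3 FPKM. Homo females differed from WT by -0.012 (95% interval -0.38 to 0.35).

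P2ry13, the neighbouring ADP receptor, followed P2ry12. It was 951 to 1348 FPKM in WT, 966 to 1541 in Het and 1137 to 1518 in Homo males, and 1259 to 1482, 1107 to 1558 and 1207 to 1453 in the female groups. Its log2 fold change was 0.069 (95% interval -0.26 to 0.40) in Homo males and -0.013 (95% interval -0.36 to 0.34) in Homo females. The lowest value of both receptors among the WT males came from the same library, WT-M-0258, with 3509 FPKM of P2ry12 and 951 of P2ry13. Med12l, which spans both on the other strand, was between 7.84 and 23.4 FPKM, and since the kit described for sorted cells is not stated to keep the strand, reads of the 3 genes may not be fully separated. Also in the Med12l interval, the UDP-glucose receptor P2ry14 had a mean of 0.152 FPKM, and Gpr171 was at 0 in every library.

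Sall1, the transcription factor, varied as much within groups as between them. It was 144, 171, 182, 128 and 137 FPKM in WT males and 155, 157, 125, 150.3 and 157 in Homo males, where 4 of the 5 libraries lay within the WT range. Het males were 117 at the lowest, 141 at the median and 161 at the highest. Its log2 fold change was -0.11 (95% interval -0.36 to 0.14) in Homo males, -0.21 (95% interval -0.45 to 0.029) in Het males and -0.064 (95% interval -0.33 to 0.20) in Homo females. Females were 130.4 to 153 in WT, 128 to 173 in Het and 129 to 151 in Homo mice.

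Tmem119 lay lower in Homo than in WT males without passing the call. WT males had 2358, 2356, 2184, 2104 and 2293 FPKM and Homo males 1549, 2004, 1598, 2070.5 and 2028, so that all 5 Homo values were below all 5 WT values as deposited. On the scaled values 4 of the 5 were, and the groups overlapped. Of all genes tested, 3.94% did not overlap in this comparison as deposited (1 of the 9 members) and 4.01% on the scaled values (0 of the 9). The difference of the means, 1850.0 ± 254 against 2259 ± 112 FPKM (SD, n = 5 each), gave a two-sided exact permutation p of 0.00794, the smallest that 5 against 5 allow, in a family of 36 such tests (9 genes in 4 comparisons). On the scaled log2 values the exact permutation p was 0.0159. In the fit across all genes the log2 fold change was -0.38 (SE 0.17, 95% interval -0.72 to -0.042, adjusted p = 0.172), and the call was not passed. Het males spread on both sides of WT (1424 at the lowest, 2016 at the median and 2581 at the highest), with 3 of 6 below every WT library and 1 above. In females it was 2091, 2220.2, 2434 and 2306 in WT and 2330.3, 2319, 2564, 2475 and 2516 in Homo libraries, with 3 of the 5 Homo values above every WT value and a log2 fold change of 0.11 (95% interval -0.25 to 0.47). The interaction of sex with Homo against WT was -0.49 (SE 0.24, 95% interval -0.98 to 0.0065, adjusted p = 0.537).

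Siglech was the steadiest member between groups. It was 1202 to 1443 FPKM in WT, 1138 to 1426 in Het and 1083 to 1412 in Homo males, and 1212 to 1362, 1142 to 1364 and 1241 to 1389.5 in WT, Het and Homo females. The log2 fold change was -0.17 (95% interval -0.43 to 0.075) in Homo males and 0.027 (95% interval -0.24 to 0.29) in Homo females.

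Fcrls was 1433 to 1612 FPKM in WT, 944 to 1711 in Het and 1017 to 1633 in Homo males, with 2 of 5 Homo libraries below the WT range and 1 above it (3 and 0 on the scaled values). Its log2 fold change was -0.33 (95% interval -0.71 to 0.056) in Homo and -0.34 (95% interval -0.71 to 0.024) in Het males. In females it was 1618 to 1822 in WT, 1384 to 1919 in Het and 1727 to 2059 in Homo mice, with log2 fold changes of 0.10 (95% interval -0.31 to 0.51) in Homo and -0.094 (95% interval -0.50 to 0.31) in Het females. Without the library labelled Het-F-0206, which held the lowest female value, the Het value was -0.025.

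Olfml3 did not pass the call in either sex. In females it was 591, 649, 637 and 724 FPKM in WT, 668, 769, 722, 746 and 758 in Het and 769, 744, 799, 741 and 686 in Homo libraries, and 4 of 5 Homo and 3 of 5 Het values were above every WT value (3 of 5 each on the scaled values). Two-sided exact permutation tests gave p = 0.0317 for Homo and p = 0.0476 for Het females, which with Tmem119 in Homo males were the 3 of the 36 unadjusted tests below 0.05. On the scaled log2 values the exact permutation p was 0.0476 for Homo and 0.0952 for Het females. The fit gave 0.20 (SE 0.19, 95% interval -0.18 to 0.58, adjusted p = 1) in Homo and 0.17 (SE 0.19, 95% interval -0.21 to 0.55, adjusted p = 1) in Het females. In males it was 657, 615, 591, 529 and 668 in WT and 451, 573, 474, 709 and 595 in Homo libraries, with 2 Homo values below and 1 above the WT range, and a log2 fold change of -0.22 (95% interval -0.58 to 0.14). The interaction of sex with Homo against WT had an adjusted p of 0.593, and in the late numbers the value was 0.091 in Homo males and 0.14 in Homo females. Het males spread widest, from 379.9 to 762, and all 6 lay outside the range of the 5 WT libraries, 3 below and 3 above.

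Sparc, a matrix-associated glycoprotein, had the lowest log2 fold change of the set in Homo and in Het males. WT males had 2082, 1945, 1915, 1937 and 2365 FPKM and Homo males 1175, 1676, 1312, 2078 and 1868. Of the 5 Homo libraries, 4 were below every WT library and the other was within the WT range. The log2 fold change was -0.45 (SE 0.20, 95% interval -0.86 to -0.04, adjusted p = 0.181), and the two-sided exact permutation test gave p = 0.0556. Het males were 1134 at the lowest, 1701 at the median and 2379.5 at the highest, with 3 of 6 below and 1 above the WT range and a log2 fold change of -0.37 (95% interval -0.76 to 0.018). Without the 2 libraries that went against their label (Het-F-0206 and Het-M-0199), the Het male value of Sparc was -0.49 with an adjusted p of 0.219. In females Sparc was 1765, 1964, 2185 and 2114 in WT and 2063, 2244, 2373, 2234 and 2019.8 in Homo libraries, which overlapped, and the log2 fold change was 0.12 (95% interval -0.31 to 0.56). The interaction of sex with Homo against WT was the lowest of the set, -0.57 (SE 0.29, 95% interval -1.17 to 0.024, adjusted p = 0.545).

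Slc2a5 was 353, 361, 339, 308 and 313 FPKM in WT and 221, 318, 230.2, 359 and 325 in Homo males, with 2 of the 5 Homo libraries below every WT library and none above. The log2 fold change was -0.31 (95% interval -0.66 to 0.038) in Homo and -0.31 (95% interval -0.64 to 0.029) in Het males. Female groups lay between 329 and 390.1 FPKM, and Homo females differed from WT by 0.041 (95% interval -0.33 to 0.41).

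Whether the genotype differences depended on sex was tested as an interaction (male minus female log2 fold change). For Homo against WT it was called for 0 of the 9 genes (background 0%) and was below an unadjusted p of 0.05 for 0 of 9 (background 9.29%), with a median of -0.35 over the members and 0.016 over all genes. For Het against WT both counts were again 0 of 9 (backgrounds 0% and 4.53%), with a median of -0.25. Between WT females and WT males, 0 of 9 were called (background 0.0473%) and 0 were below an unadjusted p of 0.05 (background 2.91%). The differences were between -0.081 (Sall1) and 0.19 (Fcrls), and for Fcrls the 4 female WT values (1618 to 1822) were all above the 5 male ones (1433 to 1612) as deposited, against 1.02% of all genes without overlap. On the scaled values 3 of the 4 were, 0 of the 9 members were without overlap, and the background was 1.04%.

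Among males, the low values came together in the same libraries. Relative to the WT mean of the same sex, the median log2 difference over the 9 genes was -0.89 in Het-M-0100, -0.44 in Het-M-0108, -0.61 in Homo-M-0093, -0.15 in Homo-M-0097 and -0.52 in Homo-M-0109, the 5 Cre-positive males with early numbers. In 4 of these 5 libraries all 9 genes were below the WT mean, and in Homo-M-0097 7 were. One late library, Het-M-0203, stood with them, with a median of -0.53 and all 9 genes below the WT mean. The other 5 late Het and Homo males were between -0.06 and 0.15, and the 10 Het and Homo females between -0.17 and 0.13. The early WT female, WT-F-0122, had a median of -0.15 with 7 of 9 genes below the WT mean.

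**Figure D3:**
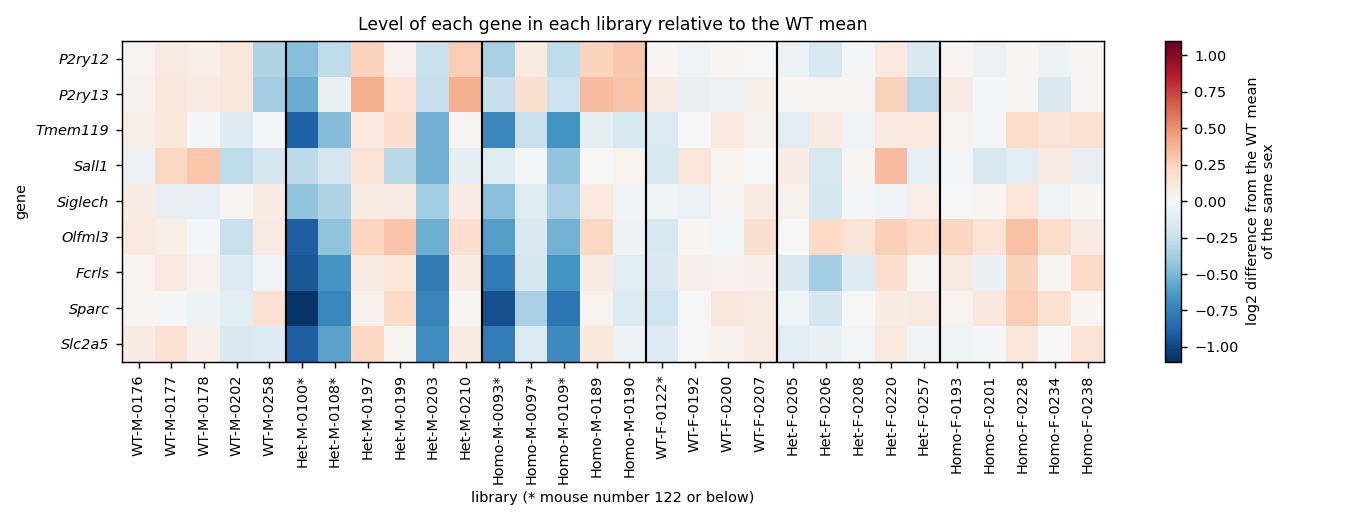
Log2 level of each gene (rows) in each library (columns, grouped as male WT, Het, Homo and female WT, Het, Homo) minus the WT mean of the same sex, blue for lower and red for higher, with early mouse numbers starred. The blue columns are early Het and Homo males and Het-M-0203, whose medians over the 9 genes run from -0.89 to -0.44 apart from Homo-M-0097 (-0.15).

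The number range was therefore tested within the Het and Homo males, 5 early against 6 late, with genotype in the model. All 9 genes were lower in early numbers, with a median log2 fold change of -0.52 against 0.096 over all genes tested. The size depended on the scaling. The members' median was -0.37 without scaling of the libraries (all genes 0.23) and -0.29 with quantile normalization (all genes -0.034). The call was passed by Olfml3 at -0.62 (SE 0.18, 95% interval -1.02 to -0.23, adjusted p = 0.0424), Sparc at -0.72 (SE 0.20, 95% interval -1.17 to -0.27, adjusted p = 0.0406) and Slc2a5 at -0.61 (SE 0.18, 95% interval -1.01 to -0.22, adjusted p = 0.0439). This is 3 of 9, against 7.42% of all genes called in either direction and 1.46% called lower. All but P2ry12 and Sall1, 7 of the 9, were lower at an unadjusted p below 0.05, against 33.8% in either direction and 14.5% lower. The members that did not pass were Fcrls (-0.60, adjusted p = 0.0654), Tmem119 (-0.52, 0.0811), P2ry12 (-0.45, 0.15), P2ry13 (-0.45, 0.0915), Siglech (-0.35, 0.102) and Sall1 (-0.12, 0.523). Since the number ranges were compared after earlier results of these data were known, and no early WT male is present, the test describes these libraries. The count of 3 rested on single libraries. It was 0 in 9 of the 11 fits that left out 1 library, 5 without Het-M-0203 (Tmem119 and Fcrls added) and 4 without Homo-M-0097 (Fcrls added), and 0 without scaling of the libraries, when all genes shifted by 0.23 and Sall1 was at 0.026.

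**Figure D4:**
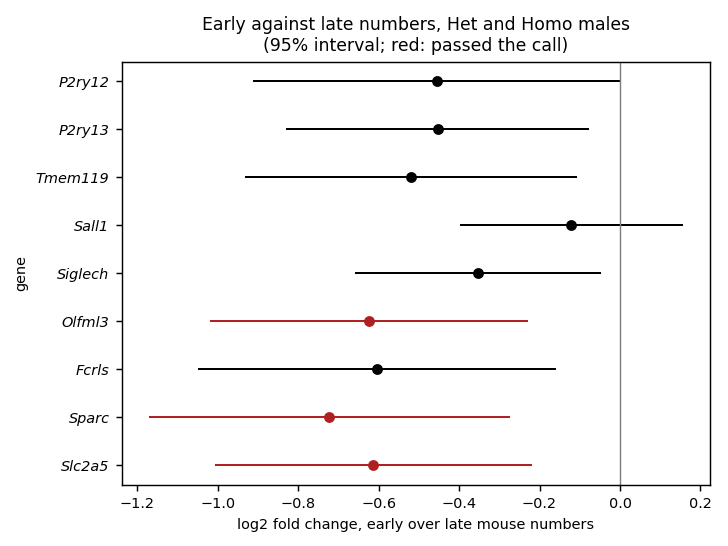
Log2 fold change (horizontal axis) of early over late mouse numbers in the 11 Het and Homo males, with 95% intervals from limma and genotype in the model. All 9 points lie below 0, from -0.72 for Sparc to -0.12 for Sall1, and the 3 genes in red (Olfml3, Sparc, Slc2a5) passed the call.

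The split can be seen in Sparc. Its values in the 5 early libraries were 1134 and 1367 FPKM (Het) and 1175, 1676 and 1312 (Homo), and in the late ones 2034, 2379.5, 1382 and 2019.7 (Het) and 2078 and 1868 (Homo). Apart from Het-M-0203, at 1382, every late library was above every early one. Sparc had the lowest log2 fold change of the set in this comparison, and the share of all genes that separate in this way was not counted. Other measures were looked at in the same libraries, and not all of them followed the split. The 6 nuclear long non-coding RNAs looked at (Malat1, Neat1, Kcnq1ot1, Meg3, Rian and Snhg11) summed to 2946 to 5775 FPKM in WT males, 8005 to 12869 in early and 2644 to 8119 in late Cre-positive males, the late maximum being Het-M-0203. Of the 5 of them that were tested, Malat1 and Neat1 were called higher in early numbers and none lower. Calls in early against late numbers, here and below, stand beside 7.42% of all genes called in either direction. That share rested on single libraries, with 1 to 2409 genes called when 1 was left out. In Homo males against WT the share of all genes was 1.81%. The sums of 5 oligodendrocyte markers were 25.1 to 39.5 FPKM in WT males, and 34.2 to 141 and 27.9 to 48.7 in early and late Cre-positive males. Mbp and Mobp were called higher in early numbers, and Mog was below 1 FPKM in every library. Het-M-0203 was at 48.7 and Het-M-0199 at 47.2. The 5 astrocyte markers summed to 0.555 to 1.16, 0.915 to 5.81 and 0.794 to 2.24, with Gja1 called higher and Aqp4 below 1 FPKM throughout. The 8 neutrophil markers summed to 43.9 to 349, 0.0923 to 189.5 and 0 to 13, with 0 in Het-M-0203. Of the 7 tested, S100a8 was called higher in early numbers, and S100a9, Ngp, Lcn2 and Ltf lower in Homo than in WT males. Of the 8 border macrophage markers none was called against WT, with medians of -0.87 in Homo and -1.095 in Het males, and Pf4 was called higher in early numbers. The 8 immediate early genes, which respond to cell handling, summed to 86.4 to 102, 112 to 147 and 85.7 to 114. Het-M-0203 was at 91.3, within the WT male range. Nfkbiz was called higher in early numbers and in Homo males. Of the 3 endothelial markers tested Pecam1 was called lower in early numbers, and of the 6 monocyte markers Chil3 was called lower in Homo males. None of 5 neuron markers was called in either comparison, with sums of 2.6 to 6.16, 3.59 to 19.6 and 4.42 to 7.37. Their part in the levels of the 9 genes was not tested.

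With late numbers alone, the members' medians in males lay near 0. In Homo males the median was 0.031 (2 Homo against 5 WT libraries), with Sparc at -0.051 (95% interval -0.41 to 0.30), Tmem119 at -0.14 (95% interval -0.45 to 0.17) and Olfml3 at 0.091 (95% interval -0.24 to 0.42). P2ry12 was then 0.28 (95% interval -0.05 to 0.61) and P2ry13 0.33 (95% interval -0.013 to 0.67), the highest of the set. In Het males (4 against 5) the median was -0.048, with values from -0.19 (Sall1) to 0.18 (P2ry13). Without Het-M-0203 as well, the Het male values ran from -0.084 (Sall1) to 0.32 (P2ry13) with a median of 0.11. None of the 9 genes was called against WT in the late numbers in either sex. Of all 16565 genes, 9 were called in Homo males, 15 in Homo females, 12 in Het males and 12 in Het females. With so few calls, 0 of 9 says little about the members. None of the 9 was below an unadjusted p of 0.05 in limma, for which the share of all genes is not given here. In females, the late values ran from -0.12 (Sall1) to 0.14 (Olfml3) in Homo and from -0.15 (Fcrls) to 0.11 (Olfml3) in Het mice. With number range as a term in the fit of all libraries, the Homo male values lay between -0.11 (Tmem119) and 0.26 (P2ry13), and none was called.

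The library labelled Het-F-0206 was looked at separately, since its Cx3cr1 was 13.9 FPKM against 1048 to 1243 in the other 4 female Het libraries. Its identity genes were nevertheless expressed, at 0.811 (Fcrls) to 1.08 (Tmem119) times the median of the other 4. P2ry12 (4202 FPKM), P2ry13 (1409.6) and Slc2a5 (343) were within their range. Tmem119 and Olfml3 were above it, and Sall1, Siglech, Fcrls and Sparc below it. Without it, Het females differed from WT by between -0.033 (P2ry12) and 0.16 (Olfml3). Without it and Het-M-0199, Het males had a median of -0.29 in place of -0.21 and all 9 genes below 0, with 0 called.

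Across the 30 libraries the log2 levels of the genes moved together to different degrees. Tmem119, Olfml3, Fcrls, Sparc and Slc2a5 had pairwise Pearson r of 0.92 to 0.96, and P2ry12 and P2ry13 had 0.94 with each other. Siglech had r of 0.93 with Sparc, and from 0.82 with Olfml3 to 0.86 with Slc2a5 for Tmem119, Olfml3, Fcrls and Slc2a5. P2ry12 had r of 0.72 with Olfml3 and 0.85 with Slc2a5. Sall1 was apart, with r between 0.33 (Siglech) and 0.55 (Slc2a5). These values describe 30 libraries that share the low early males and the scaling, and carry no test. Among 11622 genes, the 3 most like each member by r were Itfg1, Tram1 and Serinc1 for P2ry12 (0.94 to 0.96), and P2ry12, Tmed7 and Serinc1 for P2ry13 (0.91 to 0.94). For Tmem119 they were Cd81, Tcn2 and Tmem173 (0.98), for Olfml3 Tcn2, Ppp1r18 and Hexa (0.96 to 0.97), for Fcrls Slc2a5, Tcn2 and Laptm4b (0.96), and for Slc2a5 Clptm1, Tcn2 and Nucb1 (0.97 to 0.98). Sparc had Atp5a1, Bsg and Itm2c (0.97), Siglech had Sparc and Sgce among its 3 (0.92 to 0.93), and Sall1 had Qk, Zmiz1 and Xpo6 (0.87 to 0.90).

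Related genes were looked at beside the 9. Of the lists here, only the first is free of the 9. The lists of purine genes, hexose transporters and Siglec and Fc receptor-like genes include some of the 9 themselves. Of 32 further genes of the microglial signature, such as Csf1r and Trem2, 1 was called higher in Homo males, Bhlhe41, a transcription factor (log2 fold change 0.75, SE 0.18, adjusted p = 0.0255), and 0 lower (background 1.81% in either direction), with a median of -0.20. The list includes Cx3cr1, into which Cre was inserted. Its log2 fold changes were -1.23 in Homo males, -1.24 in Het males, -0.82 in Homo females and -2.13 in Het females, with SEs of 0.66 to 0.73 in a fit that holds Het-F-0206. Every Het and Homo library was below every WT library of its sex, although Cx3cr1 did not pass the call. None of the 32 was called in Homo females (background 0.071%), Het males (0.154%) or Het females (0.13%). In early against late numbers, where calls ranged from 1 to 2409 genes when 1 library was left out, 3 of the 32 were called lower (background 1.46%) and 0 higher, namely the bridging ligand Pros1 (-0.62), the complement gene C1qa (-0.76) and Lag3 (-0.84), with a median of -0.44. Of 11 purine receptors and ectonucleotidases tested, P2ry12 and P2ry13 included, Adora1, an adenosine receptor, was called higher in Homo males (1.00, SE 0.28, adjusted p = 0.0487). None was called lower there (background 1.81% in either direction). Adora1 was 0.95 in Homo females, 1.06 in Het males and 1.32 in Het females, where it did not pass. Of 8 facilitative hexose transporters tested, none was called against WT in any group. The backgrounds were 1.81% in Homo males, 0.071% in Homo females, 0.154% in Het males and 0.13% in Het females. The member Slc2a5 was the one called in early against late numbers (background 7.42% in either direction). Of 9 Siglec and Fc receptor-like genes tested, Siglech and Fcrls included, none was called in any of these comparisons, with the same backgrounds.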

How the data were processed

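RNA-seq values of 30 libraries in 6 groups (genotype and sex, from the labels) were used. The authors aligned reads to mm10 with OSA4, estimated abundance with RSEM and deposited FPKM per gene, linear and not scaled between libraries. Counts were not analysed here, so DESeq2 was not repeated. Another 6 columns of the table match no listed sample and were not used.

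Libraries were scaled by median ratios (genes averaging at least 1 FPKM), 0.1 was added, and log2 values of the 16897 genes with a mean of at least 0.1 FPKM were fitted with limma 3.58.1 (R 4.3.3) over all 6 groups, with Benjamini-Hochberg adjustment over all of them. The log2(FPKM + 0.1) scale understates changes of low genes. Two-sided exact permutation tests on deposited FPKM (scipy 1.17.1) were run for each member. Scripts were tested on simulated data. Without read totals, absolute depth is unknown and no counting error is given. P-values from limma set a difference between groups against the spread between libraries within groups. Those of the exact tests rank a difference of means among all splits of the same libraries. Positions come from GENCODE M21 and promoters from RefSeq (GRCm38.p6). All 9 members, Bin1, Cx3cr1, Med12l, listed genes that passed the call and the 3 genes most like each member were named. Other genes were named after their values were seen, and some items are not reported here. Members and lists were chosen with earlier results of these data known. Alternatives were other pseudocounts, filters, scalings and weights, fits restricted to the compared groups, number range as a covariate, late numbers alone, no fold change threshold, and leaving out libraries.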

Additional observations from a re-analysis of the deposited data

Results flagged for a closer look

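In each of the 54 combinations of gene and group, the lowest and highest library were compared with the others by Dixon's ratio, and 3 combinations held a library far from the rest. Chance gives about 5% of such groups. P2ry13 was 951 FPKM in WT-M-0258, against 1244 to 1348 in the other 4 WT males. Sall1 was 125 FPKM in Homo-M-0109, against 150.3 to 157 in the other 4 Homo males. Fcrls was 1618 FPKM in WT-F-0122, the early-numbered WT female, against 1799.9 to 1822 in the other 3.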

How the results depend on the processing

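The counts of members called against WT, between Homo and Het, in the interactions with sex and between WT females and males were 0 of 9 under all settings run, with each library left out in turn. In early against late numbers the count of 3 became 0 without a filter on low values, 0 without scaling and 0 with quantile normalization. Over the 7 settings that kept all libraries it ran from 0 to 4. It lay between 0 and 5 when 1 library was left out (1 to 2409 of all genes called). No called value changed sign. Of 2115 member values under other settings, 181 had another sign than in the report, none of them called. Other settings, leaving out Het-M-0203 beside the early numbers and leaving out both Het-F-0206 and Het-M-0199, were chosen after seeing the data. No paired analysis was possible, since the labels do not say which mice shared a litter. The paper describes the WT mice as littermates. The exact tests were also repeated on scaled values after seeing the data, when 2 of 36 in place of 3 were below 0.05, without Olfml3 in Het females. Males are limited by the mouse numbers, since early numbers and genotype cannot be fully told apart where no early WT male is present.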

Other observations

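Of 16 genes of disease-associated microglia, the state in which homeostatic genes are known to be turned down, Lyz2, which encodes lysozyme, was called higher in Homo (log2 fold change 0.83, SE 0.19, adjusted p = 0.0181) and Het males (0.85, SE 0.18, adjusted p = 0.0379), and Axl, a receptor tyrosine kinase, in Het females (1.35, SE 0.24, adjusted p = 0.00819). Apoe, an apolipoprotein, was called lower in Homo males (-1.13, SE 0.20, adjusted p = 0.0023), and was -0.10 in Homo females. Of all genes tested, 1.81% were called in Homo males, 0.154% in Het males and 0.13% in Het females. The Het females hold the library labelled Het-F-0206, without which 9 genes in place of 22 were called. The value of Axl without it is not given here. With late numbers alone, 9 of 16565 genes were called in Homo males. In early against late numbers, Itgax, Spp1 and Ctsb of this list were called lower and none higher. This is 3 of 16, against 1.46% of all genes called lower, in a comparison that called 1 to 2409 genes when 1 library was left out. Adjusted p are from limma with Benjamini-Hochberg adjustment over all genes.

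Med12l, which contains P2ry12 and P2ry13 on the other strand, was 15.3 to 23.4 FPKM in the early Cre-positive males and 16.6 in Het-M-0203, against 8.38 to 11.7 in WT males.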
